A study of Mus musculus with 6 samples.

Results

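Forkhead factors are transcription factors that bind DNA through a winged-helix domain, and their gene names carry a letter for the subfamily and a number for the member. The 39 genes described here are the forkhead genes (Fox, a letter from a to s, a number) among 27095 gene windows, leaving out Foxn1, Foxa2, Foxa3, Foxi1, Foxi2 and Foxj1. The rule uses the symbol and no measured value, and it was set with earlier results of these data known.

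Some forkhead factors, among them the FOXA proteins, bind DNA wrapped in nucleosomes and open chromatin for other factors. FOXO proteins are kept out of the nucleus by insulin and growth factor signalling through the kinase AKT, and FOXP and FOXK proteins recruit corepressors. Others pattern embryonic tissues, and one, Foxn1, is the master regulator of thymic epithelium.

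The assay was ATAC-seq, in which a transposase cuts and tags open DNA, on MHCII-high medullary thymic epithelial cells, which show self-antigens to developing T cells. Cells of wildtype C57BL/6 mice gave 3 libraries and cells of Kat7-knockout C57BL/6 mice another 3, each a biological replicate. KAT7 acetylates histones. What drives the deletion, which exons it removes, the age of the mice and how many gave each library remain not given in the sources used here.

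For each gene the reads were counted in 1 window of at most 3000 bases before and 2000 bases after a gene start (mm10). Library totals lay between 15482439 and 19832326 counts. Levels are CPM, counts scaled to library size with TMM factors, and group values are means ± SD (n = 3). Values by library stand in the order of replicates 1, 2 and 3. The Kat7 window itself held 291, 238 and 272 CPM in the wildtype and 11.9, 13.2 and 38.3 CPM in the knockout, which fits every label, although lost DNA and lost accessibility cannot be told apart there. The 14 markers of medullary thymic epithelium had a median of 134 CPM in the wildtype, and markers of mesenchymal, endothelial, T, regulatory T, B and myeloid cells had medians of 2.67 to 14.6 CPM. Single markers overlapped, with 5.66 to 481 CPM in the epithelial list and up to 136 CPM in the myeloid list, so these medians do not measure purity. An open promoter is no measure of expression, and fewer cells with an open promoter cannot be told apart from less opening per cell.

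Promoters of 6 changed members with a RefSeq promoter are shown as examples, picked after their values were seen, because they differ in CpG content, a main feature of promoter chromatin. Each is the 250 bases before the gene start, 5′ to 3′ on the gene's strand, from RefSeq on GRCm38.p6, with CpG dinucleotides in capitals. Foxn4, Foxb2 and Foxi3 fell in the knockout, and Foxd3, Foxc1 and Foxe3 rose.
Foxn4 (chr5:114273762-114274011, minus strand): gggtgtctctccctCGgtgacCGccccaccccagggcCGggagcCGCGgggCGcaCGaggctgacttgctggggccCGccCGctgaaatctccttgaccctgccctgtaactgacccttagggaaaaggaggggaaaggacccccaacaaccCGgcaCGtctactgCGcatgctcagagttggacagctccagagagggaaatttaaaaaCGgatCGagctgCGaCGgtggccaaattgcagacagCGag
Foxb2 (chr19:16873831-16874080, minus strand): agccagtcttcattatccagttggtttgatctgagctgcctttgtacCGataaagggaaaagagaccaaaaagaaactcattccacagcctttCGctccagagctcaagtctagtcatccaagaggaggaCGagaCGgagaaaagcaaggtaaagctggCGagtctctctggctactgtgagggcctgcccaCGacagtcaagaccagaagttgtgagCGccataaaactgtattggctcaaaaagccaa
Foxi3 (chr6:70956356-70956605, plus strand): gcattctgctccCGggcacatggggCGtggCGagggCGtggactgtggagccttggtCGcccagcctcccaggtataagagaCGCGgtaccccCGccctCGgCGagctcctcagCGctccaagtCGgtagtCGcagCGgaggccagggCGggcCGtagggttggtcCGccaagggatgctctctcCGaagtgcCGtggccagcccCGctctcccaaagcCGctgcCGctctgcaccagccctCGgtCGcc
Foxd3 (chr4:99656049-99656298, plus strand): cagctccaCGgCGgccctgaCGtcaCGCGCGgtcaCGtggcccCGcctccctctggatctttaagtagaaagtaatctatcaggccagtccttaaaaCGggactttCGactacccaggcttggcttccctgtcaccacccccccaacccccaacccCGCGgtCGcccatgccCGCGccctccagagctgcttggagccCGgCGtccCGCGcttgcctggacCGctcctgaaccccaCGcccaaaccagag
Foxc1 (chr13:31806396-31806645, plus strand): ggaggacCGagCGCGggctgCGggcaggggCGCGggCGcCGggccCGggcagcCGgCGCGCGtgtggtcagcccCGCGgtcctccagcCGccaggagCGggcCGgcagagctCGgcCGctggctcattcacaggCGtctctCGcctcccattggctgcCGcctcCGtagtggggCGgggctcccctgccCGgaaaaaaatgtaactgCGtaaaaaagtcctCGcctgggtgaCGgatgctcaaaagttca
Foxe3 (chr4:114926068-114926317, minus strand): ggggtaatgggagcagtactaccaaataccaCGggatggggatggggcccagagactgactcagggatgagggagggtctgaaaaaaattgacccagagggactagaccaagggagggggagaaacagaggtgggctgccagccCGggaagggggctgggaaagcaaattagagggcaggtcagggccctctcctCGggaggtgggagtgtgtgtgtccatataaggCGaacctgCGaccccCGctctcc

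These stretches held 17 CpGs in Foxn4, 7 in Foxb2 and 24 in Foxi3, and 21 in Foxd3, 29 in Foxc1 and 6 in Foxe3. CpG-dense and CpG-poor promoters stood in both directions, but the examples were picked for this difference, so no result follows from it. RefSeq's table had a promoter of 300 bases inside the window for 23 members. Of these, 16 (69.6%) were CpG-rich, meaning an observed-to-expected CpG ratio of at least 0.6 and a GC content of at least 50%, against 45.9% of 18009 windows with an entry. CpG-rich were 2 of 4 members that fell, 2 of 3 that rose and 10 of 14 that did not pass. Over all windows with an entry these shares were 36.2%, 45.5% and 47.3%.

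Forkhead motifs were searched in the same promoters, on both strands, as TGTTTAC and TGTTTGC, which differ at 1 base. The Foxa1 promoter held the first and the Foxj3 promoter the second, so that 8.70% of members with an entry had either, against 7.35% of all. No changed member with an entry had one in this window.

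Of the 39 members 35 had enough counts for a test. In the knockout 8 fell, 22.9% of the tested members, against 20.2% of all tested windows. Another 3 rose, 8.57% against 6.36%. Together these are 11 of 35, against 26.6% of all windows in either direction. The shares are near the background, and 24 members did not pass. In 18 of these the 95% interval of the change lay within 2-fold in either direction. Of the 24, 15 passed in at least 1 of 14 alternatives.

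A fall of at least 2-fold was called at 5 members, Foxf1, Foxn4, Foxb2, Foxl3 and Foxp2 (7.28% of all windows), and a rise of that size at none (0.886% of all windows). The knockout libraries all lay below the wildtype libraries at 10 members (24.6% of all) and above at 7 (13.5% of all). The median log2 fold change was 0.07 over the tested members and 0.04 over all tested windows.

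The balance of falls and rises shifted with the scaling and the filter. Against 8 members lower and 3 higher, library totals alone gave 9 and 8, loess offsets 9 and 9, and a filter at 50 counts on average 7 and 11. Foxb2, Foxl3, Foxn4 and Foxp2 were called lower, and Foxc1 and Foxd3 higher, in all 14 alternatives. Single libraries moved these counts, to 5 higher without wildtype library 2.

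**Figure D1:**
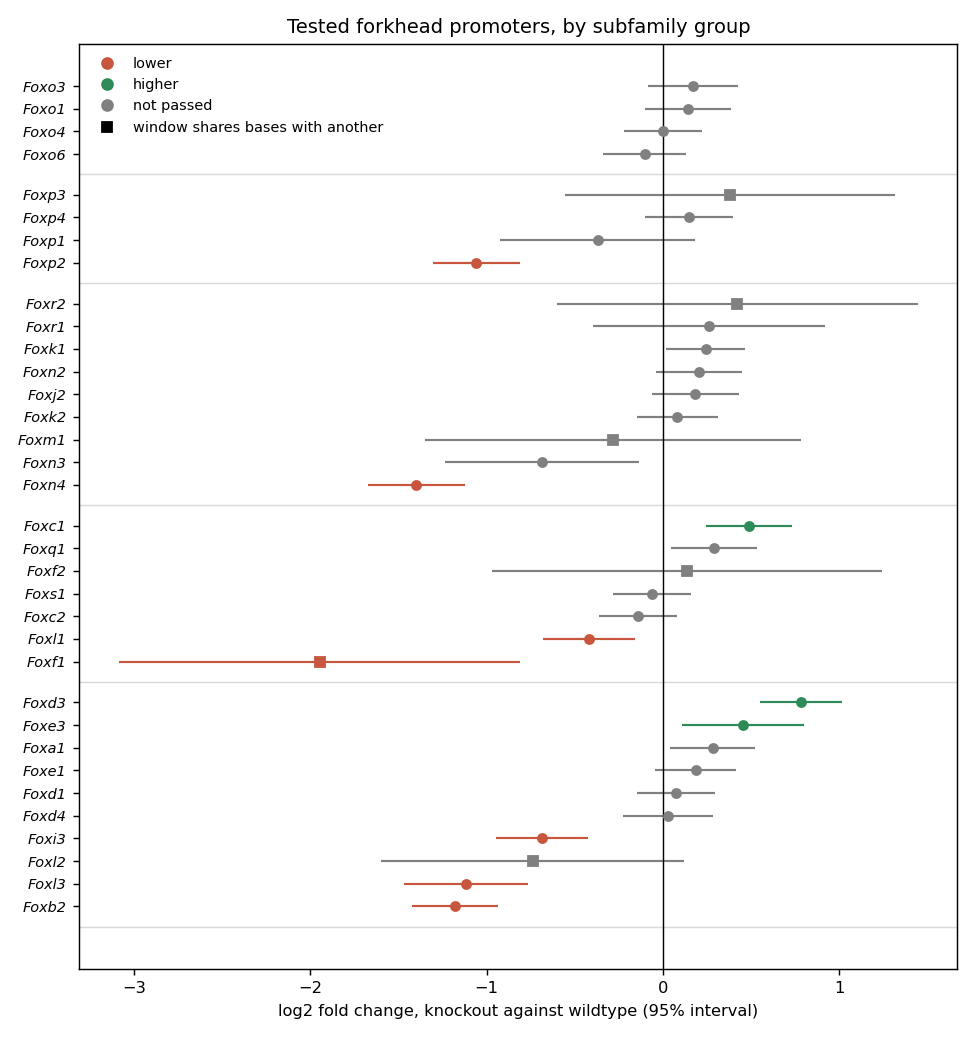
Log2 fold change (knockout against wildtype) with its 95% interval for 34 tested forkhead windows, in blocks by subfamily from FOXO at the top. Red points fell, green points rose, grey points did not pass, and squares are windows that share bases with another gene's window; all 4 FOXO intervals cross 0.

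No FOXO promoter passed the test. Foxo3 passed as higher in 2 of 14 alternatives, Foxo1 higher in 1 of 14 alternatives, Foxo6 lower in 2 of 14 alternatives and Foxo4 in none. FOXO factors switch on stress resistance, quiescence and gluconeogenesis genes when insulin signalling is low. Foxo3 was the most accessible member per kilobase of unshared window, with 59.1 ± 2.55 CPM per kb in the wildtype. Its window held 307, 297 and 282 CPM in the wildtype and 389, 309 and 299 CPM in the knockout. Knockout library 1 stood above the rest, and the other knockout libraries lay within or close to the wildtype range. The log2 fold change was 0.17 (95% interval -0.09 to 0.43, adjusted p = 0.366). Foxo1 had 0.14 (95% interval -0.10 to 0.39), Foxo4 0.0011 (95% interval -0.22 to 0.22) and Foxo6 -0.10 (95% interval -0.34 to 0.13).

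Around FOXO, 4 of 29 genes of the PI3K, AKT and 14-3-3 axis rose and 1 fell, against 6.36% higher and 20.2% lower of all windows (median log2 fold change 0.13). Here and for the lists below, the shares of all windows are not matched for level. Sgk1 encodes a kinase that phosphorylates FOXO proteins. It rose, with 18.7 ± 3.10 CPM in the wildtype and 30.1 ± 1.51 CPM in the knockout (log2 fold change 0.69, SE 0.117, adjusted p = 3.90e-08). Pik3cb, a catalytic subunit of PI3K, rose by 0.31 on the log2 scale (adjusted p = 0.0457). Irs2 and Usp7 also passed as higher, with groups that overlapped. Ywhaz, a 14-3-3 protein of the family that holds FOXO in the cytoplasm, fell, with 7.22 ± 0.714 CPM in the wildtype and 4.20 ± 0.112 CPM in the knockout (log2 fold change -0.78, SE 0.195, adjusted p = 0.000426). Single libraries moved these counts, to 2 lower without knockout library 2 and 2 higher without wildtype library 1.

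Among FOXO targets 3 of 30 tested rose and 3 fell, beside 6.36% and 20.2% of all windows (median 0.13). Pck1, a gluconeogenic enzyme, had 17.8 ± 0.955 CPM in the wildtype and 5.30 ± 0.872 CPM in the knockout (log2 fold change -1.75, SE 0.149, adjusted p = 9.14e-30). Igfbp1, which binds insulin-like growth factors, fell (-0.66), as did the death ligand gene Tnfsf10 (-0.44). The lymphocyte egress receptor gene S1pr1 (0.43), the repressor gene Bcl6 (0.40) and the ubiquitin ligase gene Fbxo32 (0.33) rose. Single libraries moved these counts, to 5 lower without knockout library 1, 1 higher without wildtype library 1 and 5 higher without wildtype library 2.

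Of the FOXP genes, whose products are repressors that act as dimers, Foxp2 fell and Foxp1, Foxp3 and Foxp4 did not pass. Foxp2 is known for its part in speech and is also expressed in lung and gut. Its window (gene identifier 114142, chromosome 6, 14898349 to 14903349) held 26.4, 23.8 and 22.8 CPM in the wildtype and 11.3, 11.6 and 12.2 CPM in the knockout. The groups lay far apart and the knockout libraries close together (log2 fold change -1.06, SE 0.126, adjusted p = 1.23e-15). After loess offsets the change was -0.67 and still passed. The next windows, Ppp1r3a (140.1 kb away, 0.00016) and Mdfic (814 kb away, 0.20), did not pass.

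Foxp4, expressed in many epithelia, was the second most accessible member per kilobase and had 209 ± 13.3 CPM in the wildtype and 232 ± 25.2 CPM in the knockout (0.15, 95% interval -0.10 to 0.40). The Foxp1 window held 3.40 ± 0.620 CPM in the wildtype and 2.64 ± 0.506 CPM in the knockout (-0.37, 95% interval -0.92 to 0.18). It holds neither the outer end of the RefSeq gene nor a start in RefSeq's promoter table.

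Foxp3 defines regulatory T cells, and its window held 0.871, 1.15 and 1.00 CPM in the wildtype and 0.917, 1.61 and 1.41 CPM in the knockout, in overlapping groups (0.38, 95% interval -0.56 to 1.32). Beside it, 3 of 8 tested T-cell markers rose and none fell, beside 6.36% higher of all windows. Over all 10 T-cell markers the summed level was 105 to 117 CPM in the wildtype and 128 to 140.3 CPM in the knockout. The largest part was Bcl11b, with 76.7 CPM in the wildtype and 90.9 CPM in the knockout, which did not pass (adjusted p = 0.116). Of 5 regulatory T-cell markers 2 rose and none fell, with sums of 111 to 150.1 CPM in the wildtype and 163 to 186 CPM in the knockout. Most of these sums came from Ikzf2 (65.5 and 79.6 CPM), which did not pass, and Il2ra (47.1 and 74.0 CPM), which rose. None of these markers was at 0, although Cd3d and Cd3g held only 0.209 and 0.229 CPM in the wildtype and were not tested. The part of these markers in the Foxp3 value was not tested.

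Of the corepressor genes that work with FOXP and FOXK proteins 3 of 20 tested rose and 1 fell, beside 6.36% and 20.2% of all windows (median 0.08). Ctbp2, a corepressor, had 123 ± 13.0 CPM in the wildtype and 180.2 ± 27.1 CPM in the knockout (log2 fold change 0.55, SE 0.125, adjusted p = 7.04e-05), in a window that shares 24.7% of its bases. Mbd2, which binds methylated DNA (0.42), rose as well. Bap1, a deubiquitinase that FOXK proteins bring to DNA, fell (-1.48, adjusted p = 0.0224), in a window that shares 85.4% of its bases, and no member of the list was called lower with DESeq2. Single libraries moved these counts, to 0 lower without wildtype library 1 or wildtype library 3 or knockout library 2 or knockout library 3 and 2 lower without wildtype library 2 or knockout library 1.

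In the FOXK, FOXJ, FOXM, FOXN and FOXR subfamilies Foxn4 fell and the other 8 tested genes did not pass. Foxn4 drives interneuron fates in retina and spinal cord. The Foxn4 window (gene identifier 116810, chromosome 5, 114271761 to 114276761) held 21.1, 17.0 and 18.3 CPM in the wildtype and 6.07, 7.23 and 8.13 CPM in the knockout, without overlap. The knockout-to-wildtype ratio of means was 0.380 (log2 fold change -1.40, SE 0.140, adjusted p = 1.03e-21). The windows on either side, Acacb (104 kb away, -0.40) and Myo1h (35.2 kb away, -0.45), fell less. Foxn1, of the same subfamily letter, rose (1.69).

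Foxk1 and Foxk2, regulators of glycolysis and autophagy genes, had log2 fold changes of 0.24 (adjusted p = 0.106) and 0.08 (95% interval -0.15 to 0.31). Foxk1 passed as higher in 5 of 14 alternatives. Foxj2 had 0.18 (95% interval -0.06 to 0.43) and Foxn2 0.21 (95% interval -0.04 to 0.45). Foxn3, a cell cycle checkpoint factor, had 3.83 ± 0.464 CPM in the wildtype and 2.38 ± 0.545 CPM in the knockout, with every knockout library below every wildtype library (-0.69, adjusted p = 0.0533). It passed as lower in 4 of 14 alternatives, and its window holds a start in RefSeq's promoter table but not the outer end of the RefSeq gene. Foxr1 had 0.26 (95% interval -0.40 to 0.92) and Foxr2, whose window is alike in this, 0.42 (95% interval -0.60 to 1.44).

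Foxm1, which drives entry into mitosis, gave little signal. Its window shares 81.9% of its bases with that of Rhno1. It held 0.776 ± 0.165 CPM in the wildtype and 0.636 ± 0.162 CPM in the knockout (-0.28, 95% interval -1.35 to 0.78), an interval that includes a 2-fold fall. In a list of G2 and M phase genes and subunits of FOXM1's partner complex, among them Mybl2, 3 of 24 tested fell and none rose. Of all windows 20.2% fell and 6.36% rose (list median -0.05). These shares are not matched for level. Cenpa, the centromeric histone gene, had 48.4 ± 2.34 CPM in the wildtype and 34.9 ± 0.592 CPM in the knockout (log2 fold change -0.47, SE 0.112, adjusted p = 0.000206). Cks1b, a partner of cyclin-dependent kinases, fell (-1.34) in a window that shares 85.2% of its bases, and Mybl2 passed with overlapping groups (-0.30, adjusted p = 0.0499). Single libraries moved these counts, to 6 lower without wildtype library 2 and 8 lower without knockout library 1.

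**Figure D2:**
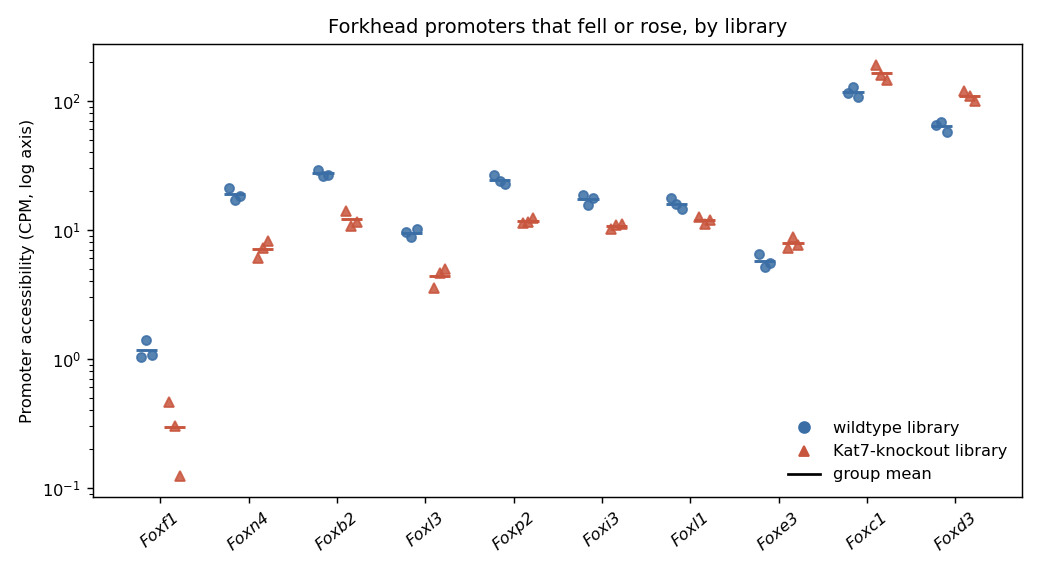
Accessibility in CPM (log axis) of 10 forkhead windows that fell or rose, in order of log2 fold change. Circles are wildtype and triangles knockout libraries, and bars are group means; at all 10 genes the groups are apart.

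The FOXC, FOXF, FOXL1, FOXQ and FOXS genes are known from mesenchyme, vessels and surface epithelia, and 6 of the 7 lie in 2 gene clusters. In the cluster on chromosome 8 Foxf1 and Foxl1 fell and Foxc2 did not pass. Foxf1 is a hedgehog target in the mesenchyme of gut and lung. Raw counts in its window (gene identifier 15227, chromosome 8, 121081474 to 121086474) were 20, 22 and 18 in the wildtype and 8, 5 and 2 in the knockout. These few reads were fewest in knockout library 3, and the groups did not overlap (log2 fold change -1.95, SE 0.580, adjusted p = 0.00423, 95% interval -3.08 to -0.81). Without knockout library 3 the change was -1.59 and did not pass (adjusted p = 0.059). The value rests on 442 bases, since 91.2% of the window is shared with the noncoding gene Fendrr (-0.65, adjusted p = 0.339). These bases are the downstream end of the window and do not hold the gene start it was built around. The fall is therefore no measure of the promoter at that start.

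Foxl1 marks the stromal cells that support gut stem cells. The Foxl1 window (gene identifier 14241, chromosome 8, 121124685 to 121129685) held 17.5, 15.7 and 14.5 CPM in the wildtype and 12.7, 11.0 and 11.9 CPM in the knockout. The groups lay apart by a small margin (log2 fold change -0.42, SE 0.133, adjusted p = 0.00776). The call was lost after loess offsets (0.02, adjusted p = 0.92), with DESeq2 (adjusted p = 0.0787), without wildtype library 1 (0.0638) and without knockout library 2 (0.0811). Foxc2, needed for lymphatic valves, lies between them and had 57.04 ± 2.22 CPM in the wildtype and 51.7 ± 4.74 CPM in the knockout (-0.14, 95% interval -0.36 to 0.08). Mthfsd, in the same stretch, had 0.04.

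Markers of mesenchyme were set beside these genes. Of 10, 5 fell (Pdgfra, Pdgfrb, Col1a2, Twist1 and Prrx1) and 2 rose (Dcn and Lum), and their summed level was 171 to 176 CPM in the wildtype and 129.5 to 138 CPM in the knockout. Of 7 endothelial markers 2 fell and 1 rose, with sums of 46.5 to 49.5 CPM in the wildtype and 37.0 to 42.7 CPM in the knockout. Falls were not confined to these lineages. Of 5 B-cell markers 3 fell and none rose, with sums of 57.2 to 58.3 CPM in the wildtype and 36.4 to 38.1 CPM in the knockout. Of 7 myeloid and dendritic markers 3 fell and 1 rose, with sums of 187 to 193 CPM and 191 to 238 CPM. Of all windows 20.2% fell and 6.36% rose. None of the markers was at 0, and their part in the forkhead values was not tested.

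In the cluster on chromosome 13 Foxc1 rose. Foxc1 acts in eye, skeletal and heart development and in hair follicle stem cells. The Foxc1 window (gene identifier 17300, chromosome 13, 31803646 to 31808646) held 114, 129 and 108 CPM in the wildtype and 191, 158 and 144 CPM in the knockout. Every knockout library was above every wildtype library, with knockout library 1 the highest (log2 fold change 0.49, SE 0.124, adjusted p = 0.00051). Over the 14 alternatives the change lay between 0.37 and 0.57.

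Foxq1, a hair and gut epithelium factor, begins the same cluster and held 139, 152 and 137 CPM in the wildtype and 198, 166 and 158 CPM in the knockout, also without overlap (0.29, adjusted p = 0.0727). It passed as higher in 9 of 14 alternatives. Foxf2, which shares 80.5% of its window with Gm19805, had 0.580 ± 0.165 CPM in the wildtype and 0.637 ± 0.278 CPM in the knockout (0.13, 95% interval -0.97 to 1.24). Foxs1, on chromosome 2, had -0.06 (95% interval -0.28 to 0.16).

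**Figure D3:**
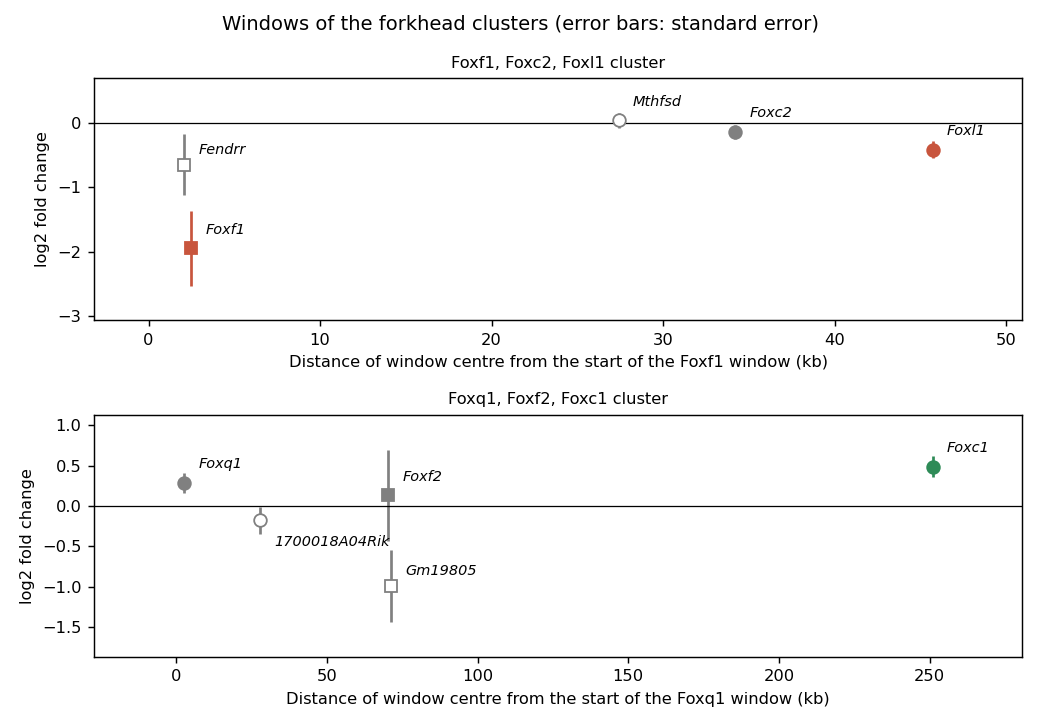
Log2 fold change with its standard error of the tested windows in 2 forkhead clusters, against distance in kb from the start of the Foxf1 window (top) or the Foxq1 window (bottom). Filled symbols are members, open symbols other genes, squares windows that share bases; Foxf1 (-1.95) and Foxl1 (-0.42) fell in the upper cluster and Foxc1 (0.49) rose in the lower one.

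Hedgehog signalling acts upstream of Foxf1, Foxf2 and Foxl1, and 5 of its 14 genes fell while 3 rose, beside 20.2% lower and 6.36% higher of all windows (median -0.01). Gli2, the main activating transcription factor, had 32.0 ± 5.18 CPM in the wildtype and 12.3 ± 1.65 CPM in the knockout (log2 fold change -1.39, SE 0.122, adjusted p = 5.62e-28). The inhibitor gene Sufu (-1.73, with 96.3% of the window shared) fell, as did the ligand gene Ihh (-0.87) and Gli1 (-0.70). The coreceptor gene Gas1 rose, with 76.4 ± 9.19 CPM in the wildtype and 121 ± 8.89 CPM in the knockout (0.67). Boc, another coreceptor (0.48), and the receptor gene Ptch1 (0.40) rose too.

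The remaining subfamilies pattern endoderm, ectoderm, neural crest, lens and gonad. Of their 14 genes 11 were tested, 4 fell and 2 rose, beside 20.2% lower and 6.36% higher of all windows. Foxb2, a gene of the embryonic neural tube, had a window (gene identifier 14240, chromosome 19, 16872316 to 16876830) with 29.0, 26.2 and 26.8 CPM in the wildtype and 14.0, 10.6 and 11.5 CPM in the knockout. No knockout library came near the wildtype range (log2 fold change -1.18, SE 0.124, adjusted p = 8.76e-20). Prune2 on one side (76.3 kb away) also fell (-1.18), and Vps13a on the other (88.4 kb away) did not pass (0.11).

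Foxl3, a switch between sperm and egg fate in fish germ cells, fell. The Foxl3 window (gene identifier 384244, chromosome 5, 138817080 to 138821619) held 9.53, 8.82 and 10.2 CPM in the wildtype and 3.55, 4.66 and 4.95 CPM in the knockout. The lowest wildtype library was well above the highest knockout library (log2 fold change -1.12, SE 0.179, adjusted p = 5.37e-09). After loess offsets the change was -0.69 and still passed. Pdgfa (171 kb away) rose (0.37), and Fam20c, on the other side, did not pass (0.15). Foxl2, the ovarian factor, had 1.86 ± 0.117 CPM in the wildtype and 1.11 ± 0.219 CPM in the knockout without overlap (-0.74, 95% interval -1.60 to 0.12), in the 703 bases not shared with Foxl2os (0.05). Those bases are the upstream end of the Foxl2 window and do not hold the gene start.

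Foxi3 patterns the pharyngeal region from which the thymus arises. Its window (gene identifier 232077, chromosome 6, 70953606 to 70958606) held 18.6, 15.5 and 17.5 CPM in the wildtype and 10.1, 10.9 and 11.0 CPM in the knockout, in separate groups (log2 fold change -0.69, SE 0.134, adjusted p = 2.49e-06). After loess offsets the change was -0.25 and did not pass (adjusted p = 0.102).

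Foxd3, a factor of pluripotent and neural crest cells, had the largest rise among the members. Its window (gene identifier 15221, chromosome 4, 99653299 to 99658299) held 64.9, 68.0 and 57.3 CPM in the wildtype and 119.5, 108 and 99.6 CPM in the knockout, with a wide gap between groups (log2 fold change 0.78, SE 0.119, adjusted p = 7.04e-10). Over the alternatives the change lay between 0.69 and 0.84.

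Foxe3, the lens factor, rose less firmly. The Foxe3 window (gene identifier 30923, chromosome 4, 114925147 to 114929013) held 6.46, 5.18 and 5.49 CPM in the wildtype and 7.28, 8.72 and 7.58 CPM in the knockout, a narrow separation (log2 fold change 0.46, SE 0.177, adjusted p = 0.0395). The call was lost in 7 of 14 alternatives. These were DESeq2 (adjusted p = 0.053), library totals (0.118), no filter (0.0885) and leaving out wildtype library 2 (0.236), wildtype library 3 (0.23), knockout library 2 (0.248) or knockout library 3 (0.052).

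Foxa1, the pioneer factor of endoderm and hormone-responsive epithelia, held 124, 135 and 121 CPM in the wildtype and 185, 139 and 138 CPM in the knockout. The groups were apart, with knockout libraries 2 and 3 just above the highest wildtype library (0.28, adjusted p = 0.0786). It passed as higher in 8 of 14 alternatives. Foxe1, the thyroid factor, had 0.19 (95% interval -0.04 to 0.42), Foxd1, of kidney stroma, 0.07 (95% interval -0.15 to 0.29) and Foxd4 0.03 (95% interval -0.23 to 0.28).

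Foxb1, Foxd2, Foxh1 and Foxj3 had too few counts for a test, with means of 0.103 to 0.406 CPM in the wildtype and 0.0971 to 0.617 CPM in the knockout. Their windows share 84.1% to 98.4% of their bases with other genes. In all, 8 members share most of their window, and their median of 9.5 counts compares with 931.3 for the 29 members that share no base.

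**Figure D4:**
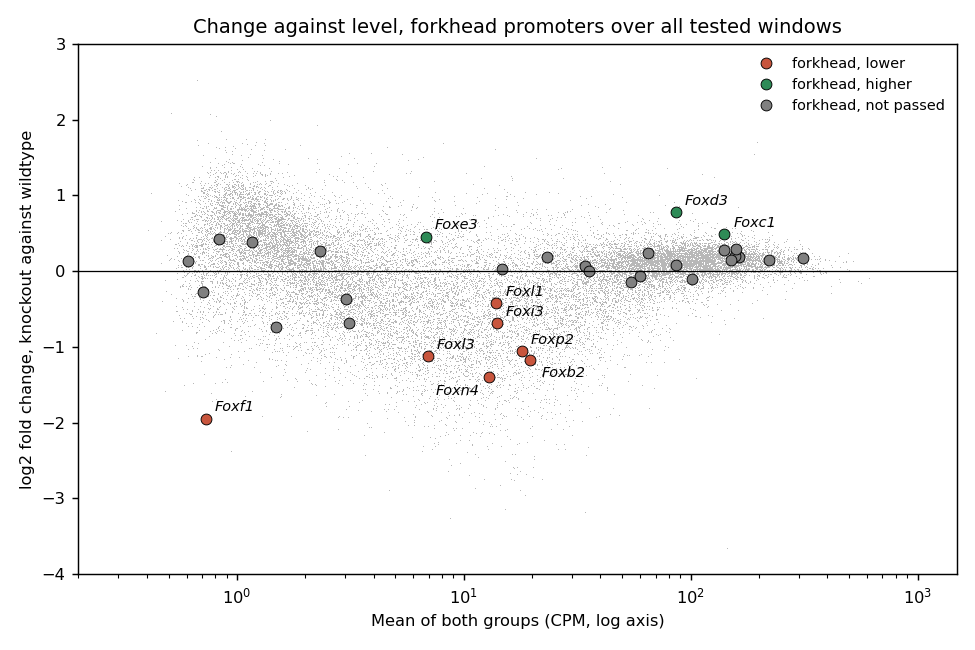
Log2 fold change against the mean CPM of both groups (log axis) for 34 tested forkhead windows (large points) over all 24817 tested windows (grey). Foxn4, Foxb2, Foxl3, Foxp2, Foxi3 and Foxl1 fell at middle levels, and Foxf1 at a very low one.

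Tested windows were split into quartiles by their mean level, and the members' calls are set here beside those of all windows of like level. The gene lists above were not split this way. In the third quartile of accessibility 5 of 11 fell and none rose, against 43.2% and 9.28% of all windows there. In the fourth, the most open, 1 of 13 fell and 2 rose, against 3.72% and 9.32%. In the second 1 of 5 fell and 1 rose (32.5% and 4.58%), and in the first 1 of 6 fell and none rose (1.35% and 2.26%). At all 13 members of the fourth quartile knockout library 1 was the highest knockout library. The share over all windows of that quartile was not computed, so whether this is particular to the members cannot be judged. Sums over the markers of medullary thymic epithelium were likewise highest in knockout library 1 (2776, 2359 and 2293 CPM). Sums over the mesenchymal markers, at lower levels, were not (132, 129.5 and 138 CPM).

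Of the 6 forkhead genes left out, Foxa2, the endoderm pioneer factor, fell (-0.56, adjusted p = 4.86e-06), and Foxi2 fell (-1.03, adjusted p = 2.51e-06). Foxi1 (-0.48) and Foxj1 (-0.22) did not pass, and Foxa3 had too few counts for a test.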

How the data were processed

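ATAC-seq reads of 6 libraries were used as deposited counts, whole numbers per gene window that the authors made with featureCounts on mm10, per the submitters' processing notes. Aligner, duplicate handling and any correction for the transposase offset: not given in the sources used here. Kept duplicates could raise single windows. Symbols came from the tables of single libraries, matched by gene identifier, whose counts equalled those of the series table in all 6 libraries. Levels per kilobase divide by the unshared bases of a window, because windows that share bases had low counts.

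Tests used R 4.3.3 and edgeR 4.0.16 (filterByExpr defaults, 24817 windows kept; TMM factors 0.884 to 1.06; robust glmQLFit, glmQLFTest; Benjamini-Hochberg over all tested windows at 0.05), with no replicate block. Adjusted p-values are from it unless another setting is named. SE is the absolute log2 fold change over the square root of F. The test had 99268 degrees of freedom at every tested member, because the fit pools the spread between replicates over windows. SE, intervals and p-values of the members therefore reflect this pooled spread, and hardly each gene's own spread between replicates. The SD of the group values is each gene's own. The biological coefficient of variation was 10.9%. DESeq2 1.42.0 was among 14 alternatives. The scripts were tested on simulated data.

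Members, gene lists and tests were chosen with earlier results of these data known. Named were all members, the forkhead genes left out, noncoding neighbours and the windows beside members changed at least 2-fold. Per list, up to 3 genes in each direction past the threshold with groups apart were named. Irs2, Usp7, Mybl2, Ihh, Gli1, the cluster neighbours and the single T-cell and regulatory T-cell markers were added after their values were seen. Alternatives were DESeq2, library totals, RLE size factors, loess offsets, no filter, a mean of at least 50 counts, a fit that was not robust, a replicate block and leaving out each library. Promoter sequences came from RefSeq on GRCm38.p6. A few genes enter the counts but are not reported here by name.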

Additional observations from a re-analysis of the deposited data

How the results depend on the processing

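Library totals gave 8 members higher, 7 PI3K-AKT-FOXO genes higher, 10 FOXO targets higher, and 7 FOXM1-related genes lower and 2 higher. Loess offsets gave 9 members higher, 7 PI3K-AKT-FOXO genes higher, 5 FOXO targets lower and 7 higher, 10 FOXM1-related genes lower and 2 higher, and 2 corepressors lower and 5 higher. A mean of at least 50 counts gave 11 members higher, 12 PI3K-AKT-FOXO genes higher, 13 FOXO targets higher, 5 FOXM1-related genes lower and 3 higher, 0 corepressors lower and 6 higher, and 6 hedgehog genes higher. No filter gave 5 FOXM1-related genes lower, and DESeq2 0 corepressors lower. Over all windows the higher share of calls was 23.9%, and 35.6%, 47.0% and 44.4% with library totals, loess offsets and the stricter filter. The cause was not tested.

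The replicate block gave 6 members higher, 2 PI3K-AKT-FOXO genes lower, 5 FOXO targets and 5 corepressors higher, and a higher share of 33.8% of all calls. Deviations of same-numbered libraries correlated at 0.374, 0.0284 and 0.389, and knockout library 2 correlated best with wildtype library 3 (0.308). The first and last of the same-numbered values were the highest of all combinations. With so few libraries per group these correlations cannot decide on pairing. The labels do not say that same-numbered libraries share a litter or day, so the main fit had no block.

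Leaving out 1 library gave 6 to 10 members lower and 2 to 5 higher and a median of -0.0053 (without knockout library 1) to 0.12. It gave 1 to 2 PI3K-AKT-FOXO genes lower and 2 to 6 higher, 2 to 5 FOXO targets lower and 1 to 5 higher, 2 to 8 FOXM1-related genes lower and none higher, 0 to 2 corepressors lower and 3 to 4 higher, and 4 to 6 hedgehog genes lower and 2 to 4 higher. Of 478 single-gene values 402 kept direction and side of the threshold, 15 lost and 42 gained a call, and 19 changed sign. The last were Foxd4 -0.00084 (library totals), -0.0091 (no filter) and -0.045 to 0.099 (leaving out 1 library); Foxo4 -0.030 (library totals), -0.037 (no filter), -2.56e-05 (replicate block) and -0.090 to 0.046 (leaving out 1 library); Foxf2 -0.30 (loess offsets) and -0.19 to 0.43 (leaving out 1 library); Foxl1 0.019 (loess offsets); Foxk2 -0.027 to 0.16 (leaving out 1 library); Foxd1 -0.0063 to 0.14 (leaving out 1 library); Foxs1 -0.16 to 0.0028 (leaving out 1 library). Windows sharing most of their bases, down to a few counts, limit Foxf1, Foxf2, Foxl2 and Foxm1.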
